A study of Homo sapiens with 4 samples.

Results

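The genes described here encode the enzymes that methylate histones and the Polycomb and H3K4 complex subunits that work with them. They were taken by name, 41 genes in all. Their m6A sites were counted where every one of the 4 libraries listed the site on 20 or more reads of A or G. That gave 773 sites in 39 genes. The full lists held 78509 such sites, some of them outside named genes, and 10782 named genes had a tested site. EHMT2 was listed at 11 sites but at none in all 4 libraries, and SETDB2 was listed at no site, so neither could be compared. The cells were HEK293T, a human embryonic kidney line labelled as wild type, either as controls (2 libraries) or after ascorbic acid (2 libraries, 36 h). The assay was GLORI, in which unmethylated A is converted and read as G while N6-methyladenosine (m6A) is still read as A, so the m6A level is the percent of A plus G reads that carry A. No dose is stated in the labels, which also do not say that replicates were separate cultures, so p-values cover the spread between these 4 samples and may reflect technical variation alone.

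Histone methyltransferases transfer methyl groups from S-adenosylmethionine to lysines of histones. Methylation of H3K4 marks promoters and enhancers, that of H3K36 and H3K79 marks transcribed gene bodies, and that of H3K9 and H4K20 marks silent or compacted chromatin, while the Polycomb complex PRC2 methylates H3K27 at silenced developmental genes. Many of the demethylases that remove these marks are dioxygenases that use iron and are helped by ascorbate, as are the m6A demethylases, and H3K36 methylation set by SETD2 is known to bring the m6A methyltransferase complex to transcripts.

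The 4 lists held 1139 and 1120 sites of these genes in control, and 1093 and 1125 after treatment, among 132989 to 144171 sites in each full list. The median depth of the tested sites of these genes was 114 and 120 reads in control but 119 and 140 after treatment, against 97.0, 100.0, 102 and 118 over all tested sites. Control 2 stood apart in conversion: its median unconverted share over these genes was 4.33%, against 3.00% in control 1 and 3.13% and 3.29% with ascorbic acid. Of 6 genes often found in HEK293T cells, 5 had listed sites and PAX2 had none, and of 10 markers of other cells only ACTA2 had any, with a coverage of 88.4 and 87.0 in control against 141 and 134 after treatment, as deposited; its part in the results was not tested. The lists show no value for a gene without a called site, so an unlisted gene is not shown to be absent.

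Sequence was at hand for 4 of the tested sites, those within 250 bases before to 50 bases after a gene start in RefSeq's promoter table (GRCh38.p14), which held 36 of the 41 genes. They are shown because they are the sites of these genes for which the bases around the measured A could be read. Each is 21 bases long on the transcript strand, with the measured A in the middle of the 5 capitals.

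EED, first site: gtttcctgGGACAttggtggt
EED, second site: cattccacAGACTttcgctcc
SETD1A: ttcctcagGGACTagtcgcag
SETD3: gggccgtcTCAGGctgccgtc

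These lie at chr11:86244725-86244745 and chr11:86244752-86244772 (plus strand), chr16:30957714-30957734 (plus strand) and chr14:99480849-99480869 (minus strand). The first EED site lies 18 bases and the SETD1A site 30 bases before the start of the table, the second EED site 9 bases after it, and the SETD3 site at the start itself. The gene span used for distances starts elsewhere for SETD3, which puts that site 5599 nt inside the gene. The motif searched, on the transcript strand alone, was an A that follows A or G, with A, G or T before that, and that is followed by C and then by A, C or T. The EED and SETD1A sites match it and the SETD3 site does not. All 2401 tested sites inside promoter windows of this table sat on an A, and 28.1% of them matched, against 7.24% of every A in the windows. Matching sites had a median control level of 41.4% and a median change of -5.11 points, the others 24.3% and -0.14. Among the 4 sites, SETD1A, at chromosome 16 position 30957724, read 54.8% and 54.3% in control but 43.1% and 36.5% after treatment, on 126 to 173 reads (edgeR adjusted p = 0.00415), and the groups did not overlap. The SETD3 site read 17.2% and 17.6% in control against 38.2% and 28.1% after treatment on 29 to 64 reads, the largest upward difference among the 773 sites, and did not pass (adjusted p = 0.123, edgeR). The EED sites did not pass either (adjusted p = 0.255 and 0.894, edgeR).

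The treatment was compared with control for its effect on RNA methylation, and in these genes the m6A level was lower with ascorbic acid nearly throughout. By the quasi-likelihood test of edgeR on reads of A and of G, with p adjusted over all tested features and a threshold of 0.05, 290 of the 773 sites fell (37.5%; 25.7% of all tested sites fell) and none rose (0.219% of all). Over whole genes, with reads summed over their tested sites, 34 of 39 fell (56.7% of all genes fell), none rose (0.297% of all) and 5 did not pass. At an unadjusted p of 0.05, 361 of these sites were lower and 2 were higher, and limma and DESeq2 also called no rise. The median level over the 773 sites was 42.4% and 44.7% in control but 33.3% and 33.2% after treatment, so that both treated libraries lay below both controls by more than the replicates differed. That is a difference of -10.3 points, against -7.04 over all tested sites. The treated libraries lay below both controls at 499 of the sites (64.6%; 55.4% of all sites) and above both at 22 (2.85%; 4.22% of all sites). The median change of a gene was -0.55 in log2 odds (the odds of A over G), against -0.39 over all genes.

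These genes carry more sites and deeper reads than most, and the share of genes called is higher among genes with more sites. They held 19.8 tested sites per gene, and 25 of the 39 had at least 10, against 2455 of 10782 over all genes. The median of a site's shallowest library was 102 reads, against 86 over all tested sites. Among all genes with at least 10 tested sites 78.9% fell, and among the 25 genes here with that many, 23 did. The part of site number and depth in the larger shares was not tested beyond these counts. With limma on log2 odds 178 of these sites fell and with DESeq2 150, and without ascorbic acid 2 the count was 195. All 150 sites of DESeq2 and 172 of the 178 of limma were also called by edgeR.

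**Figure D1:**
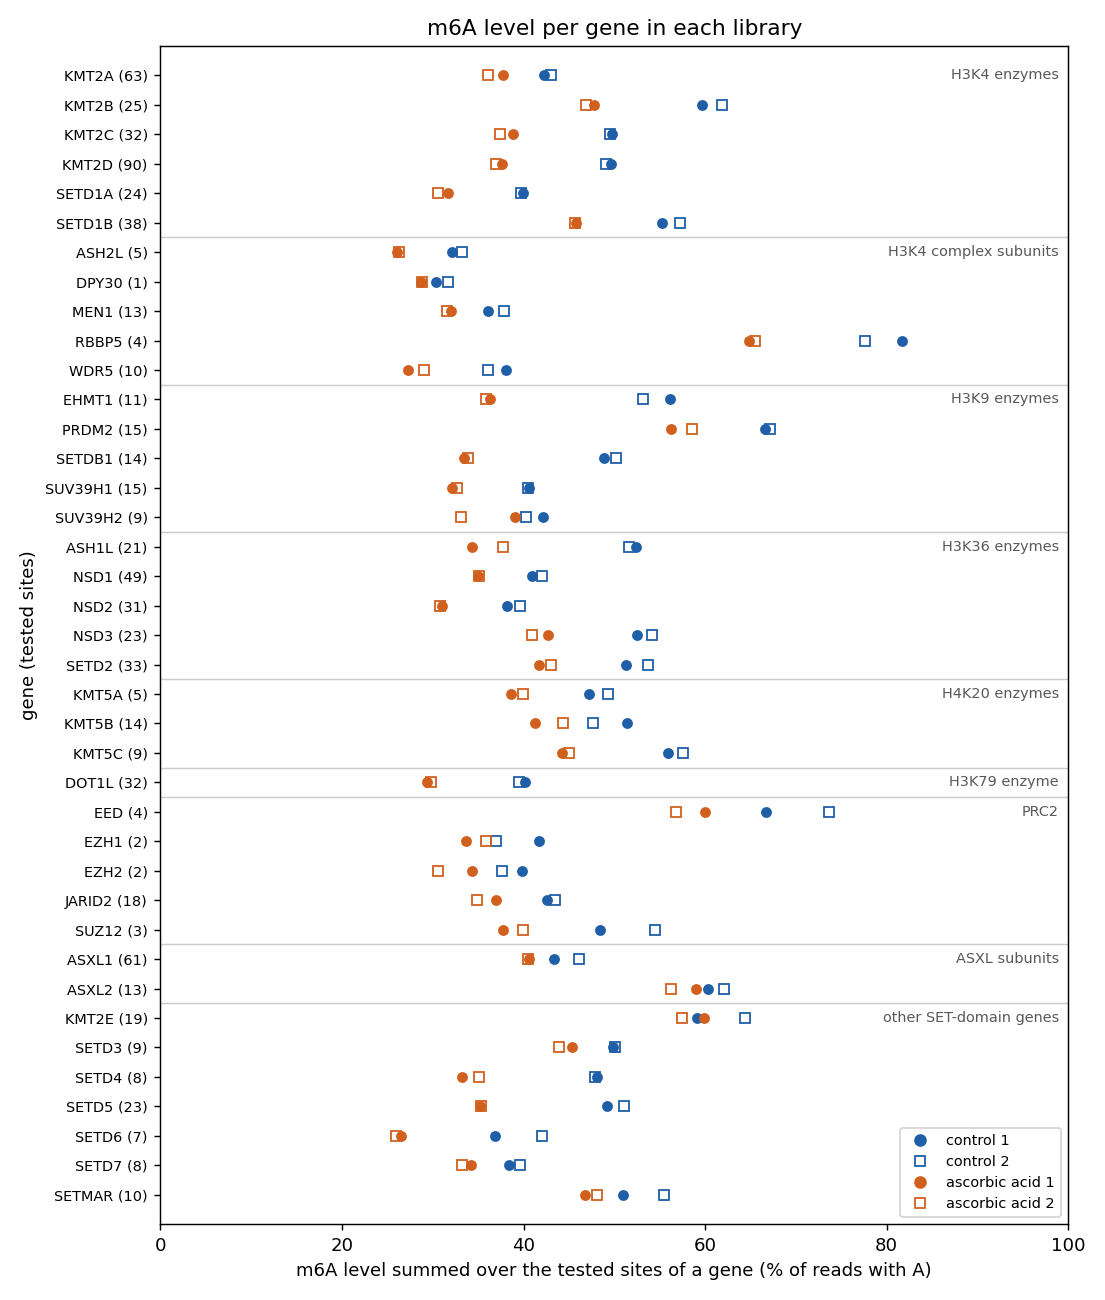
m6A level of each of the 39 genes in the 4 libraries (x axis, percent of A plus G reads with A, summed over the tested sites; number of sites in brackets), with control in blue and ascorbic acid in orange, circles for replicate 1 and open squares for replicate 2, grouped by role. In 38 genes both orange points lie left of both blue points (8266 of 10782 over all genes, 76.7%), and KMT2E is the exception.

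The H3K4 methyltransferases of the KMT2 and SETD1 families, the catalytic subunits of the COMPASS complexes, fell in all 6 genes and at 120 of 272 sites (44.1%), with no rise. Of all tested sites 25.7% fell. Each of the 6 had at least 10 tested sites, and of all genes with that many 78.9% fell. KMT2D, which methylates H3K4 at enhancers, held more tested sites than any other gene here, 90, and its level was 49.7% and 49.1% in control and 37.6% and 36.9% in the treated libraries (log2 odds -0.72, edgeR adjusted p = 9.06e-09). Of its sites 46 fell and 83 were lower by any amount, as were 82.9% of all tested sites. Its deepest loss was at chromosome 12 position 49026583, within the gene and 7605 nt from the annotated gene end, where the level was 84.0% and 86.1% in control but 33.3% and 34.0% after treatment on 213 to 324 reads. At position 49032490 of the same gene the level was 98.3% and 98.0% in control and still 93.4% and 92.3% with ascorbic acid (adjusted p = 0.00170, edgeR). The groups do not overlap at either position, although the sizes lie far apart, and the difference between sites was not tested. The call at the second position was lost with limma (adjusted p = 0.0563).

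KMT2C, the close relative of KMT2D at enhancers, went from 49.7% and 49.5% to 38.9% and 37.4% over 32 sites. Parts of KMT2C have near-identical copies elsewhere in the genome, so its reads could be split by the mapping. The site at chromosome 7 position 152148635 read 92.4% and 92.8% in control against 53.2% and 70.8% after treatment, so the treated libraries were far apart and still lay below both controls. KMT2B, which acts at promoters of developmental genes, was highest of the 6 in control and changed most, from 59.7% and 61.9% to 47.8% and 46.9% (log2 odds -0.79). SETD1B went from 55.2% and 57.3% to 45.7% in both treated libraries, and its site at chromosome 12 position 121823714 from 90.6% and 86.2% to 49.6% and 43.1% on 139 to 153 reads. SETD1A, its relative, fell from 39.8% ± 0.167 to 31.1% ± 0.745 (SD, n = 2). Its sites at chromosome 16 positions 30965013 and 30965114 fell by 24.9 and 32.8 points, while that at position 30979531 read 78.2% ± 1.20 in control and 77.4% ± 1.05 after treatment (edgeR adjusted p = 0.936).

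KMT2A, the gene rearranged in many leukaemias, changed least of the 6. Over 63 sites it read 42.2% and 43.0% in control and 37.7% and 36.1% in the treated libraries (log2 odds -0.34, edgeR adjusted p = 0.000295), and 19 sites fell. In that gene, chromosome 11 position 118505303 fell from 90.2% ± 2.09 to 78.1% ± 2.87 on 288 to 357 reads, a call lost with limma (adjusted p = 0.0521). A neighbouring site at position 118505270 read 25.6% and 34.8% in control but 38.4% and 37.3% after treatment. That site was chosen after its values were seen, because it was the only one of the 773 called as a rise under any setting. It did not pass with all libraries (edgeR adjusted p = 0.122), and passed without control 2 (edgeR adjusted p = 0.0446). At position 118506383 the level was 70.8% and 73.1% in control against 70.7% and 72.9% after treatment.

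The shared subunits WDR5, RBBP5, ASH2L and DPY30 hold and activate the H3K4 enzymes, and menin, from MEN1, binds KMT2A and KMT2B. Of these 5 genes 4 fell (56.7% of all genes fell) and DPY30 did not pass, and 15 of 33 sites fell (45.5%; 25.7% of all tested sites). RBBP5 had the highest control level of all 39 genes, 81.7% and 77.6% over 4 sites, and read 64.8% and 65.5% with ascorbic acid (log2 odds -1.04). Its site at chromosome 1 position 205088734 read 95.2% and 95.0% in control and 76.2% and 74.0% in the treated libraries on 270 to 358 reads. WDR5 went from 38.0% and 36.1% to 27.3% and 29.0%, and ASH2L from 32.1% and 33.2% to 26.1% and 26.3%. In WDR5 the site at chromosome 9 position 134158019, on 521 to 647 reads, fell from 83.7% ± 0.611 to 56.3% ± 1.06 (edgeR adjusted p = 1.26e-14). DPY30 had 1 tested site, at 30.4% and 31.7% in control but 28.7% and 28.8% after treatment (edgeR adjusted p = 0.677 for the gene).

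MEN1 read 36.0% and 37.9% in control against 32.0% and 31.6% after treatment over 13 sites. At chromosome 11 position 64804323, the deeper of a pair 54 nt apart, the level was 73.0% and 72.3% in control and 71.9% and 72.4% in the treated libraries on 867 to 1034 reads. The other, at position 64804377, read 45.6% and 45.0% in control but 28.4% and 30.9% after treatment on 421 to 511 reads. The groups overlap at the first position and are well apart at the second (edgeR adjusted p = 0.876 and 2.44e-06), but the difference between the sites was not tested.

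**Figure D2:**
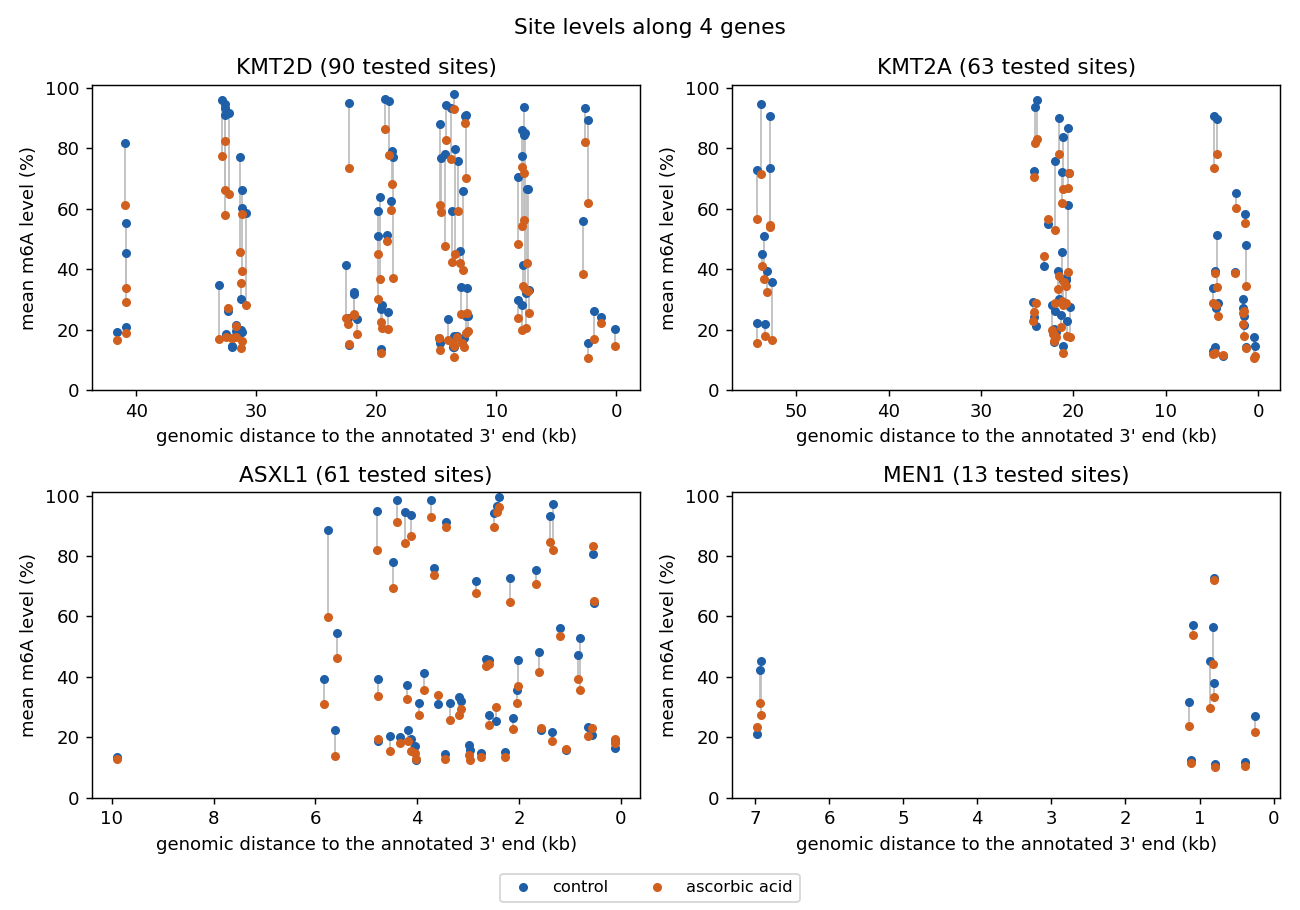
Mean m6A level of each tested site (y axis, percent, n = 2 libraries per group) against how far it lies from the gene's annotated 3' end on the genome (x axis, kilobases, introns included) in KMT2D, KMT2A, ASXL1 and MEN1, with control in blue, ascorbic acid in orange and a grey line joining the 2 values of a site. Of the sites of these genes 46, 19, 13 and 5 fell, in that order, and sites that changed little lie among them in each gene.

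The H3K9 methyltransferases, which build heterochromatin, held the site and the gene with the steepest losses. All 5 genes that could be tested fell (56.7% of all genes), with 29 of 64 sites (45.3%; 25.7% of all tested sites). Their median site level was 55.0% ± 0.552 in control and 40.1% ± 0.822 with ascorbic acid. EHMT1 (GLP) forms a dimer with the product of EHMT2 and places mono- and dimethyl marks. It read 56.2% and 53.2% in control against 36.3% and 35.9% after treatment over 11 sites (log2 odds -1.09, edgeR adjusted p = 8.68e-10), the largest fall of the 39 genes, and 9 of its sites fell. At chromosome 9 position 137717030 the libraries read 81.3% and 85.1% in control and 23.8% and 20.7% in the treated libraries, on 202 to 285 reads, the largest change among the 773 sites. Besides its 11 tested sites, EHMT1 had 7 sites listed in both controls and in neither treated library.

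SETDB1, which silences transposable elements with its cofactors, went from 48.9% and 50.2% to 33.5% and 33.9% (log2 odds -0.95). The site at chromosome 1 position 150950919 read 81.0% and 82.8% in control but 25.9% and 36.5% after treatment on 163 to 263 reads. SUV39H1, the enzyme of trimethylated H3K9 at pericentromeres, fell from 40.5% ± 0.0792 to 32.4% ± 0.417. Losses in that gene were large at a pair of sites, chromosome X position 48700200, from 92.2% and 94.3% to 44.2% and 40.0%, and position 48700479, from 95.6% and 95.1% to 60.1% and 63.1%. PRDM2 fell from 66.9% ± 0.415 to 57.4% ± 1.66 on the fewest reads per site of this group, and its site at chromosome 1 position 13781322 was read as A in every control read and at 87.9% and 85.7% with ascorbic acid, on 31 to 35 reads. SUV39H2, the relative of SUV39H1, read 42.1% and 40.3% in control against 39.0% and 33.2% after treatment (edgeR adjusted p = 0.0401). That call was lost without control 1 (adjusted p = 0.0947), without ascorbic acid 2 (0.533), with limma (0.157), with DESeq2 (0.172) and with each site weighted equally (0.10001). In that gene, chromosome 10 position 14897171 fell from 82.5% ± 3.90 to 57.5% ± 0.746.

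The H3K36 methyltransferases fell in all 5 genes and at 62 of 157 sites (39.5%; 25.7% of all tested sites). Each of the 5 had at least 10 tested sites, and of all genes with that many 78.9% fell. Of the 157 sites 146 were lower by any amount, as were 82.9% of all tested sites. ASH1L, a Trithorax-group enzyme, fell most, from 52.4% and 51.6% to 34.4% and 37.8% (log2 odds -0.94), and each of its 21 sites was lower with ascorbic acid. Its site at chromosome 1 position 155478137, which lies 142869 nt before the annotated gene end, read 89.3% and 87.6% in control and 31.4% and 45.2% in the treated libraries on 103 to 121 reads. NSD3 went from 52.5% and 54.1% to 42.7% and 40.9%, and its site at chromosome 8 position 38276349 from 75.7% ± 6.06 to 22.2% ± 0.874 on no more than 25 to 49 reads. SETD2, the enzyme of trimethylated H3K36 in gene bodies, went from 51.3% and 53.7% to 41.7% and 43.1% over 33 sites. At chromosome 3 position 47056983 its level was 96.3% and 92.7% in control but 59.7% and 57.9% after treatment. NSD1, mutated in Sotos syndrome, fell by 6.45 points as a gene, from 41.5% ± 0.852 over 49 sites, yet its site at chromosome 5 position 177211777 went from 91.9% and 92.3% to 40.9% and 55.0%. NSD2, the gene of the translocation of some myelomas, fell from 38.8% ± 1.02 to 30.9% ± 0.129, and its site at chromosome 4 position 1979133 fell from 86.7% ± 1.15 to 65.2% ± 1.77 on 580 to 656 reads.

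The H4K20 enzymes and DOT1L, the enzyme of H3K79, fell as genes, as did 56.7% of all genes. In the 3 H4K20 genes 7 of 28 sites fell, a share near the 25.7% of all tested sites. Both treated libraries lay below both controls at 13 of these 28 sites (46.4%; 55.4% of all sites). In DOT1L 13 of 32 sites fell (40.6%). DOT1L read 40.2% and 39.5% in control against 29.3% and 29.8% after treatment over 32 sites (log2 odds -0.66). In DOT1L 31 sites were lower by any amount, as were 82.9% of all tested sites. At chromosome 19 position 2230406 it read 88.7% and 91.3% in control and 58.2% and 52.9% in the treated libraries on 257 to 357 reads. KMT5C, which with KMT5B adds further methyl groups to H4K20, fell from 56.7% ± 1.16 to 44.7% ± 0.561. KMT5A, the enzyme of monomethylated H4K20, fell from 48.3% ± 1.42 to 39.3% ± 0.949, with its site at chromosome 12 position 123407751 at 83.5% and 84.1% against 66.7% and 67.8% on 478 to 554 reads. KMT5A has a pseudogene, KMT5AP1, listed in 1 library, so its reads can be shared. KMT5B fell from 49.5% ± 2.62 to 42.8% ± 2.22 (edgeR adjusted p = 0.0119). The KMT5B call was lost without control 1 (adjusted p = 0.0644), without ascorbic acid 1 (0.141), with limma (0.0686), with DESeq2 (0.0849) and at 50 reads per site (0.320).

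PRC2 carried few measured sites in EZH1, EZH2, EED and SUZ12, and its group here also holds JARID2. Of the 5 genes 3 fell and EZH1 and EZH2 did not pass, and 6 of 29 sites fell, 3 of them in JARID2. Of all genes 56.7% fell and of all tested sites 25.7%, so both counts are near or below the background. EZH2, the catalytic subunit, had 2 tested sites and read 39.8% and 37.6% in control but 34.4% and 30.6% after treatment (edgeR adjusted p = 0.231). EZH1, its alternative, had 2 sites and read 41.7% and 36.9% against 33.7% and 35.9% (edgeR adjusted p = 0.402). With each site weighted equally EZH1 passed (limma adjusted p = 0.0476). These genes had 64 to 142 reads per library in all, where KMT2D had 14268 to 18083, and a fall of the size seen in EZH2 was not called at this depth. SUZ12, a scaffold subunit, read 48.5% and 54.5% in control against 37.7% and 39.9% after treatment over 3 sites (edgeR adjusted p = 0.00123), but its call was lost at 50 reads per site (0.0714), and a partial copy of the gene, SUZ12P1, can share reads.

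EED, the subunit that binds trimethylated H3K27, read 70.2% ± 4.96 in control and 58.4% ± 2.27 after treatment over 4 sites, on 152 to 185 reads (edgeR adjusted p = 0.0137). The call was lost without control 2 (adjusted p = 0.139), without ascorbic acid 2 (0.0785) and with DESeq2 (0.107). JARID2, a cofactor that guides PRC2 to its targets, fell from 43.0% ± 0.609 to 35.9% ± 1.48 over 18 sites. Of these 3 fell. At chromosome 6 position 15246182, 275860 nt from the annotated gene end, the level was 75.2% ± 0.290 in control and 34.8% ± 0.497 after treatment on 54 to 61 reads.

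The ASXL proteins, subunits of the Polycomb deubiquitinase that removes ubiquitin from H2A, had the smallest median site change of the groups, -3.71 points. Over all tested sites it was -4.89 points. Of their sites 14 of 74 fell (18.9%), below the 25.7% of all tested sites, and of the 2 genes 1 fell (56.7% of all genes). ASXL1 had 61 tested sites and the smallest fall of the genes called, from 43.4% and 46.1% to 40.6% and 40.5% (log2 odds -0.25, edgeR adjusted p = 0.00487). The groups did not overlap, but the call did not hold when ascorbic acid 1 (adjusted p = 0.0939) or ascorbic acid 2 (0.110) was left out, nor with limma (0.104). Single sites of ASXL1 did move: chromosome 20 position 32433564, 5755 nt from the gene end, read 88.8% and 88.5% in control and 60.6% and 59.0% in the treated libraries. At position 32436932, 2387 nt from the end, the level was 99.6% and 99.4% in control but 96.9% and 95.7% after treatment on 227 to 326 reads (edgeR adjusted p = 0.00151, and 0.0828 with limma). ASXL2 read 60.4% and 62.1% against 59.0% and 56.2% and did not pass (edgeR adjusted p = 0.108), but passed with each site weighted equally (limma adjusted p = 0.0429). The site at chromosome 2 position 25742250 read 91.4% ± 1.03 in control and 90.8% ± 2.16 with ascorbic acid on 114 to 139 reads.

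Of the other genes with a SET domain 6 of 7 fell as genes (56.7% of all genes fell). Of their sites 24 of 84 fell (28.6%), near the 25.7% of all tested sites. Their median gene change was -0.33 in log2 odds, against -0.39 over all genes. SETD5 and SETD6 had the largest falls in log2 odds, SETD5 from 49.1% and 51.1% to 35.2% and 35.3% over 23 sites (log2 odds -0.88), 14 of which fell. In that gene, chromosome 3 position 9475688 went from 97.4% and 96.0% to 77.0% and 76.9% on 498 to 635 reads. SETD6, which methylates a subunit of NF-kappaB, fell from 39.5% ± 3.62 to 26.2% ± 0.385. In SETD4 only 1 site was called: chromosome 21 position 36045784 read 91.0% and 93.3% in control against 56.9% and 57.3% after treatment on 234 to 330 reads, and none of its other 7 sites passed.

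SETD7, which monomethylates H3K4 and many other proteins, fell from 39.0% ± 0.844 to 33.7% ± 0.716 (edgeR adjusted p = 0.00452, 0.0834 without ascorbic acid 2 and 0.0680 with each site weighted equally by limma). SETD3, the actin histidine methyltransferase, read 49.8% and 50.0% in control and 45.4% and 43.9% in the treated libraries (edgeR adjusted p = 0.0162). That was lost without ascorbic acid 1 (adjusted p = 0.0568), without ascorbic acid 2 (0.175), with limma (0.0520), with DESeq2 (0.118) and with each site weighted equally (0.1002). SETMAR, a SET domain fused to a transposase, read 50.9% and 55.4% against 46.8% and 48.1% with no single site called (edgeR adjusted p = 0.0398). That call was lost without control 2 (adjusted p = 0.275), ascorbic acid 1 (0.179) or ascorbic acid 2 (0.0940), with limma (0.0963) and DESeq2 (0.187) and at 50 reads per site (0.0736). KMT2E, which reads H3K4 methylation and has no known methyltransferase activity, read 59.1% and 64.4% in control but 59.8% and 57.5% after treatment. Both treated libraries lay below both controls in 76.7% of all genes and in all of the 39 but KMT2E, whose groups overlapped. KMT2E did not pass (edgeR adjusted p = 0.152). It passed without control 1 (edgeR adjusted p = 0.00331) and with each site weighted equally (limma adjusted p = 0.0367). Its site at chromosome 7 position 105113153 read 80.4% and 74.5% against 78.5% and 76.7%.

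**Figure D3:**
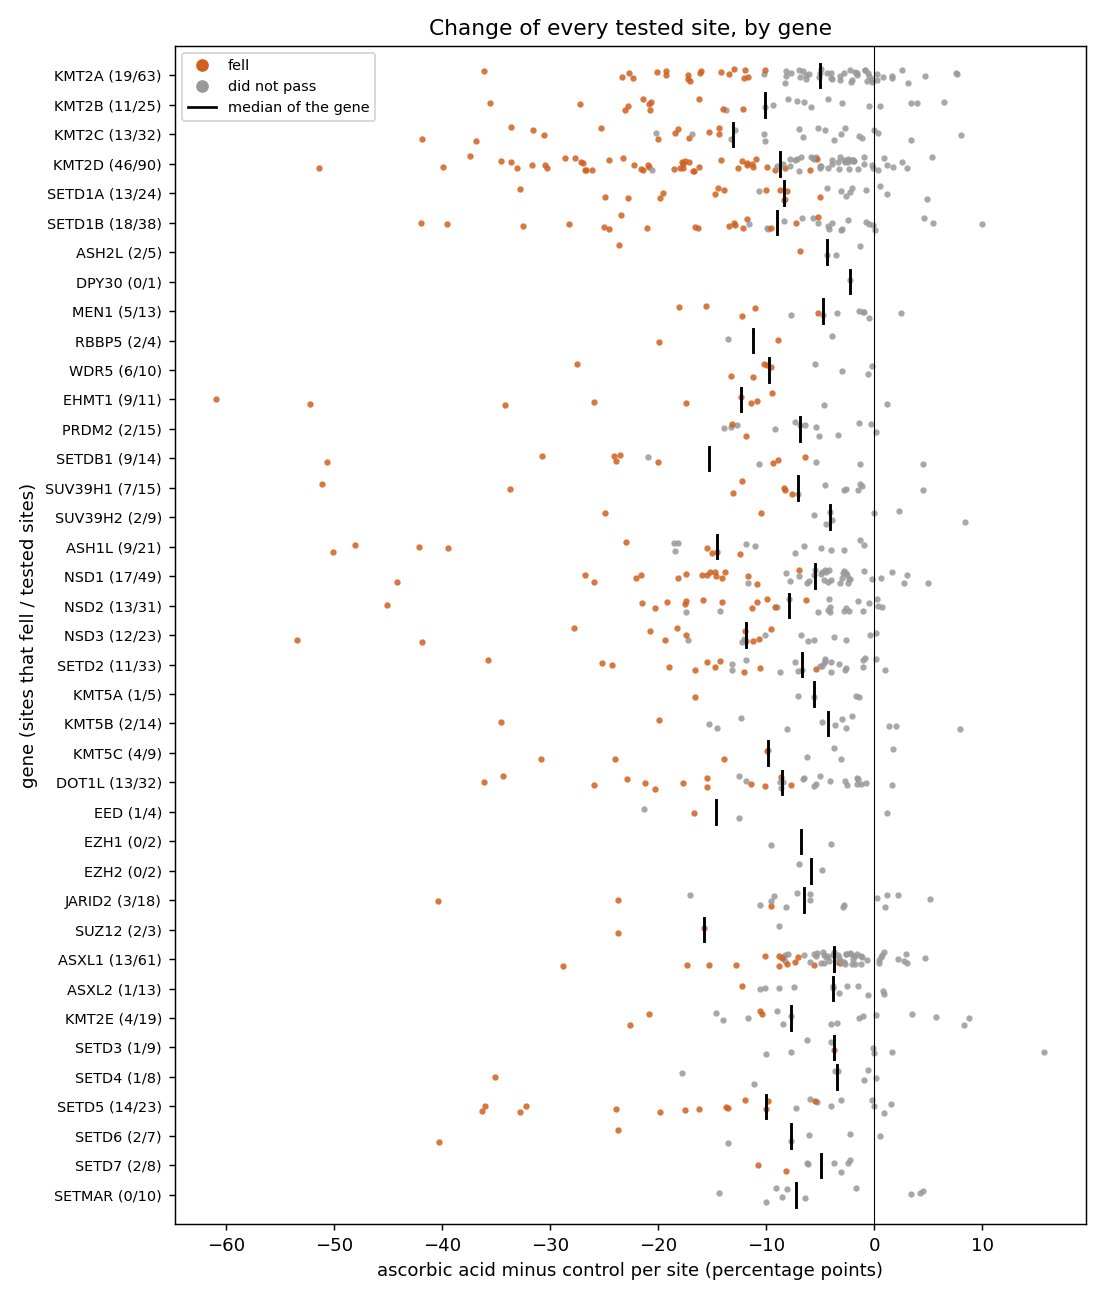
Change of each of the 773 tested sites (x axis, percentage points, mean of the 2 ascorbic acid libraries minus mean of the 2 control libraries), by gene, with sites that fell in orange, sites that did not pass in grey and the median of each gene as a black bar. The changes run from -61.0 points in EHMT1 to 15.7 points in SETD3, and no site to the right of zero passed.

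Sites that fell were mostly sites of high level. The median of the 290 was 75.7% in control and 46.6% after treatment, with a median change of -17.1 points, 111 of them fell by more than 20 points and 16 by more than 40. Over all tested sites 6337 and 850 of the 20141 that fell did so. Of sites at 80% or more in control 124 of 155 fell (57.5% of all tested sites of that level), with a median change of -14.3 points against -9.60 over all. Of those at 60 to 80% in control 59 of 107 fell (55.1%; 38.7% over all), and of those at 40 to 60% 64 of 155 (41.3%; 24.6% over all). At 20 to 40% the share was 16.7%, with 13.8% over all, and under 20% it was 2.59%, with 4.65% over all. In percentage points a low site has little room to fall, and a site that fell under 10% in a library is not listed there. Of the 155 sites at 80% or more in control, 60 were still at 80% or more with ascorbic acid and 31 were under 60%.

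**Figure D4:**
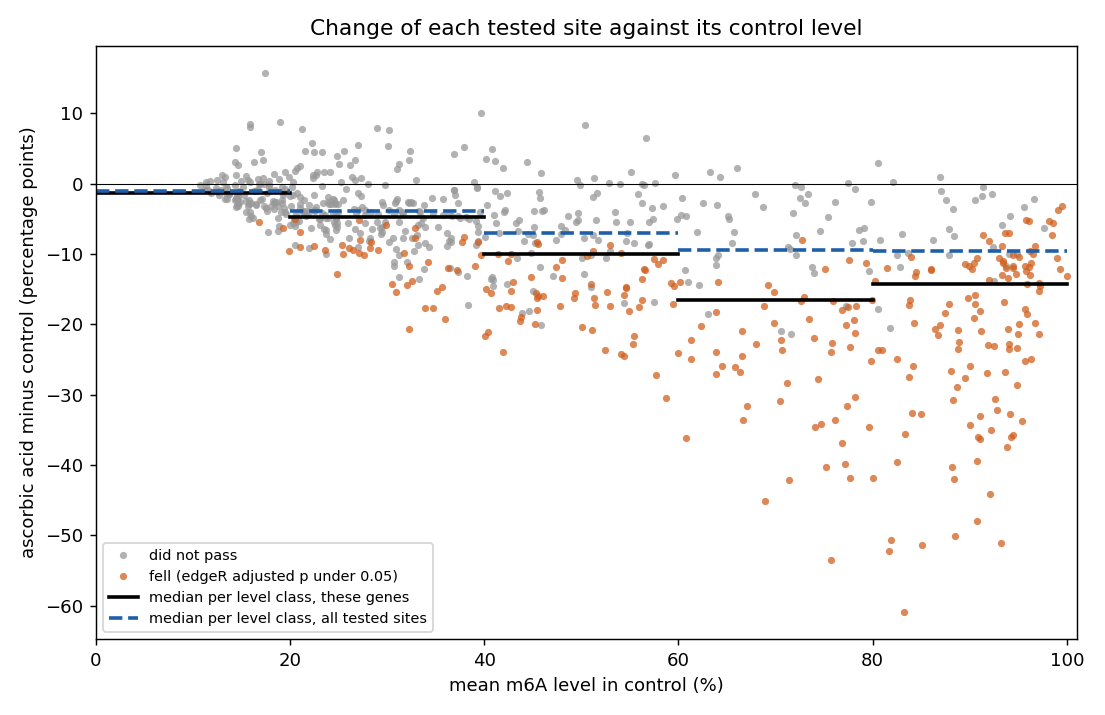
Change of each of the 773 sites (y axis, percentage points, ascorbic acid minus control) against its mean control level (x axis, percent), with sites that fell in orange and the others in grey; black lines give the median of these sites per class of level and dashed blue lines that of all 78509 tested sites. The black median lies at -16.6 points and the blue at -9.42 for sites at 60 to 80% in control.

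The share of sites that fell also differed with genomic distance to the gene end. Distance was taken on the genome to where the gene is annotated to end, introns included, since no exon annotation was at hand. Of the sites less than 1000 nt from the end 28 of 89 fell (31.5%; 29.3% of all tested sites there), and of those at 1000 to 5000 nt 60 of 218 (27.5%; 22.6%). Of those at 5000 to 20000 nt 95 of 211 fell (45.0%; 26.6%), and of those at 20000 nt or more 107 of 255 (42.0%; 37.1%). The median change went from -4.72 points nearest the end to -5.41, -8.08 and -10.6 points farthest from it. Control levels also differed between these classes, with medians of 32.9%, 39.7%, 51.1% and 44.8%. The classes differ in their genes as well: the median distance of the tested sites was 143230 nt in ASH1L and 104513 nt in SETD2. It was 627 nt in EHMT1 and 492 nt in KMT5C. Level, gene and position cannot be told apart from these counts alone, and positions within a gene were not compared.

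The coverage of these transcripts did not pass the test of change. Gene coverage, as deposited and scaled between libraries, was available in all 4 libraries for 40 of the genes, and limma called none higher (0.253% of all genes were) and none lower (0.0422% of all), with 7 of 40 at an unadjusted p of 0.05, against 1709 of 11848 over all genes. Their log2 changes ran from -0.17 to 0.26. EHMT1, the gene with the largest m6A fall, also had the largest difference upward, with a scaled coverage of 127 in both control libraries and 152 in both treated libraries (log2 0.26 ± 0.0536 SE, limma adjusted p = 0.118). SETDB1 read 151 and 144 in control against 171 and 167 after treatment (limma adjusted p = 0.220), and SETD3 had the largest difference downward, from 131 and 129 to 115 and 116 (limma adjusted p = 0.253). In EHMT1, SETDB1 and SETD3 the groups do not overlap, but over all genes 23.2% had both treated libraries above both controls and 23.6% below. Of the 40 genes here 12 lay above and 14 below. Fewer transcripts per cell and fewer cells that hold the transcript cannot be told apart in such bulk samples.

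**Figure D5:**
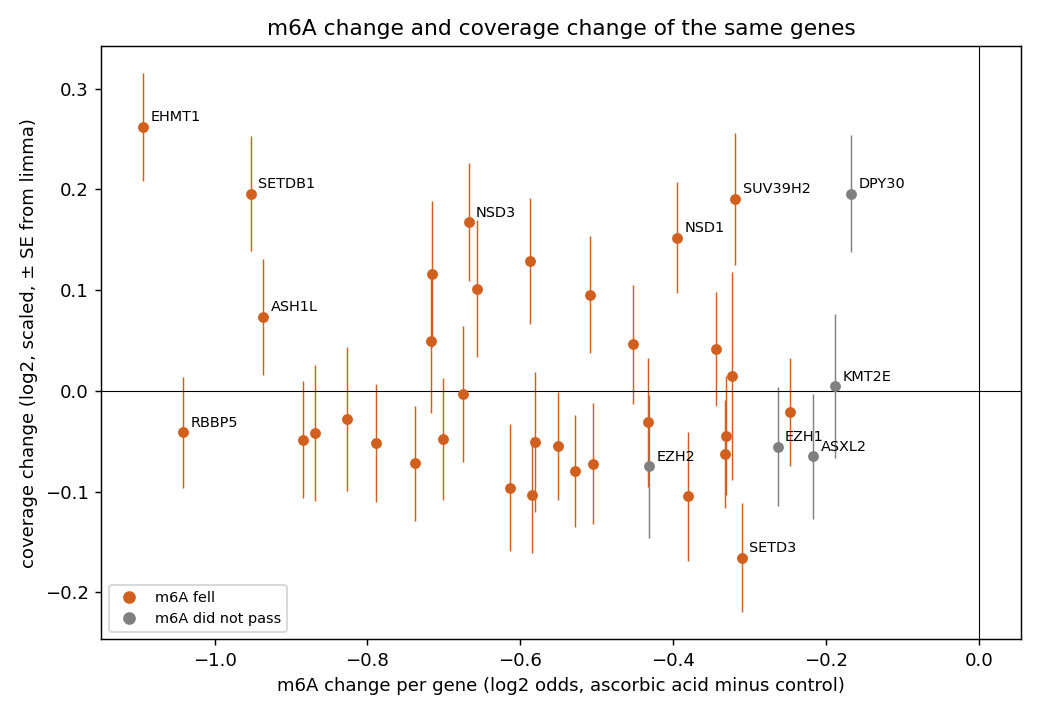
Change in coverage (y axis, log2 of scaled coverage, ascorbic acid minus control, bars are ± SE from limma) against change in m6A (x axis, log2 odds) for the 39 genes with a tested site, in orange where m6A fell and in grey where it did not pass. All 39 points lie left of zero in m6A, as did 9955 of 10782 over all genes. Coverage changes lie between -0.17 and 0.26 with none past the threshold.

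Partners of these enzymes outside the list gave the setting. Of 57 such genes, fixed as 5 lists, 48 had tested sites, 32 fell, none rose and 16 did not pass by edgeR, with a median of -0.40 in log2 odds, close to the -0.39 of all genes. The share of all genes that fell, 56.7%, is the background of the counts in each list. In PRC1, the Polycomb complex that ubiquitinates H2A, 13 of 17 measured genes fell, among them PCGF3, from 61.8% ± 2.43 to 45.6% ± 0.589, L3MBTL2, from 56.4% ± 0.481 to 45.9% ± 0.187, and KDM2B, from 44.9% ± 2.26 to 34.7% ± 0.170. Of the further PRC2 genes, a list of RBBP4, RBBP7 and accessory subunits, 1 of 6 measured fell. It was RBBP4, a histone chaperone gene, from 20.9% ± 2.05 to 17.4% ± 0.311 (edgeR adjusted p = 0.00652). MTF2 read 47.1% ± 1.02 against 43.4% ± 1.33 (adjusted p = 0.0758, edgeR). Of the genes of the deubiquitinase module and its partners 6 of 7 fell, with HCFC1 from 38.4% ± 0.349 to 25.3% ± 0.133 and the catalytic subunit BAP1 from 32.8% ± 0.126 to 24.2% ± 0.325. Of the partners of the H3K4 complexes 6 of 10 fell, with PAXIP1 from 53.5% and 50.5% to 37.9% and 40.7% and CXXC1, which brings SETD1 to unmethylated CpG islands, at its single site from 78.3% ± 4.10 to 50.5% ± 1.77. Of those of the H3K9 enzymes 6 of 8 fell, with WIZ, a partner of EHMT1, from 34.5% ± 0.253 to 24.6% ± 0.0596 and ATF7IP, the cofactor of SETDB1, from 49.3% ± 0.477 to 41.3% ± 0.605.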

How the data were processed

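GLORI libraries of HEK293T messenger RNA were compared, 2 control and 2 ascorbic acid. Per the submitters' processing notes, reads were handled with Trimmomatic 0.39 and STAR on hg38 and GRCh38; site caller and its settings: not given in the sources used here. The A and A plus G reads per site are whole counts that the authors deposited without scaling. The level is a fraction deposited by the authors, A over A plus G, as is the conversion rate per gene. Gene coverage is a signal deposited by the authors with no stated unit. The p-value of a site is the authors' test against background; the lists start at 15 reads, 5 of them A, and a level of 10%.

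Sites that all 4 libraries list on 20 or more reads were tested with edgeR 4.0.16 (quasi-likelihood, a term for each library, treatment effect on the odds of A), and so were sums per gene. Coverage was scaled by median ratios and tested with limma 3.58.1 on log2 values with a pseudocount of 1; the filter at a scaled mean of 5 removed no gene. P-values were adjusted by Benjamini-Hochberg over all features, two-sided, at 0.05. The edgeR and limma tests were tried on simulated data, DESeq2 was not. There limma on single sites gave every changed site the right sign but called none of them. Far fewer sites were changed there than fell in these data, where limma called 178 of the 773 sites and DESeq2 150. The simulation therefore does not rank the sensitivity of the tests here. DESeq2 1.42.0 and limma on log2 odds (0.5 added to A and G) were alternatives, with other read minimums, equal weight for each site of a gene (limma), each library left out and a replicate block. R 4.3.3, Python 3.11.15, numpy 2.4.6, pandas 2.3.3 and matplotlib 3.10.9 were used. Intervals between libraries cover these samples only, and reads of 1 molecule may repeat.

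Members and lists were chosen with earlier results of these data known. Sites named were the 12 largest falls with 50 reads and groups apart, where each gene entered only with its site of smallest p, the site of smallest p of a gene, the sites of highest control level and those at 60% or more that moved least, and for genes with at least 5 sites the largest change; related genes were up to 4 of smallest p in each list. Gene spans come from RefSeq (GRCh38.p14), where all 41 symbols matched. No genome was at hand, so sequence around most sites was not examined.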

Additional observations from a re-analysis of the deposited data

Results flagged for a closer look

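Sites listed in both ascorbic acid libraries and in neither control library lay outside every comparison above. There were 35 of them in these genes, 2.28% of the 1537 sites listed anywhere, against 2.75% over all listed sites. Another 52 were listed in both controls and in neither treated library, 3.38%, against 3.04% over all listed sites. The 35 stood out because some had a high level: 10 of them read 50% or more, against 3 of the 52. Over all listed sites it was 1304 of 6026 against 441 of 6664. Of the 35, 11 had another listed site 6 nt away on the same strand, against 1 of the 52. Over all listed sites that was 1295 of 6026 against 209 of 6664, so the contrast is not particular to these genes. In KMT2D a pair of sites 6 nt apart, at chromosome 12 positions 49038689 and 49038695, read 82.9% and 87.5%, and 72.9% and 79.2%, with ascorbic acid on 144 to 184 reads. SETD5 at chromosome 3 position 9476116 read 74.7% and 79.4% on 229 and 248 reads, and SETDB1 at chromosome 1 position 150960876 read 61.9% and 69.9% on 84 and 93 reads. The reverse was seen in KMT2D at chromosome 12 position 49038183, listed at 98.4% and 96.7% in the controls on 64 and 60 reads and in neither treated library. These sites were picked after their values were seen, no level is given for the libraries that do not list them, and the difference was not tested.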

How the results depend on the processing

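The direction of every gene's m6A change held in every setting that gave it a value, and 26 of the 34 genes called kept their call in all of them; the others are named above. The number of member genes that fell was 28 to 33 when a library was left out and 29 to 34 otherwise. Member sites that fell numbered 178 with limma on log2 odds and 150 with DESeq2, against 290, and from 195 to 246 with a library left out; the cause was not tested. Member sites that rose numbered 0 to 1 with a library left out. With the replicate number as a block 297 sites and 34 genes fell. The labels do not tie the numbers to a shared culture or day, and deviations of same-numbered libraries from their group means correlated at -0.0053 over sites, -0.0042 over genes and -0.16 for coverage. With the numbers crossed, a setting added after the data were seen, coverage still gave 0 calls among these genes, as it did under the block and all other settings. The median level changed by -9.14 to -11.4 points with a library left out, and by -10.4 after correction for unconverted A. Of the 5 named sites that moved least, all but that of MEN1 changed sign when a library was left out: from -0.33 to 0.20 in log2 odds at the ASXL2 site, from -0.092 to 0.073 in KMT2A, from -0.24 to 0.24 in KMT2E and from -0.13 to 0.011 in SETD1A. EZH1 and EZH2 did not pass on 104 to 142 and 64 to 121 reads per library. EED was called on 152 to 185 reads, while ASXL2 did not pass on 893 to 929. The part of depth in these calls was not tested.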

Other observations

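Shares of sites that fell were also counted among the deeper sites alone. Among sites with at least 100 reads in every library, 69 of 76 sites of these genes at 80% or more in control fell (90.8%). Of all 5498 such tested sites 75.8% fell, and the median changes were -15.9 and -9.12 points. At 60 to 80% in control the shares were 67.5% of 40 and 55.3% of 4387, at 40 to 60% they were 62.0% of 71 and 40.5% of 5820, and at 20 to 40% they were 25.2% of 119 and 25.4% of 11146. Under 20% the order was the other way, with 3.41% of 88 against 6.92% of 8364. These shares are a description, since sites of a gene share reads and the genes were chosen with earlier results known.

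EHMT2, which could not be compared, had 11 listed sites, 2 of them in 2 libraries and the others in 1. At chromosome 6 position 31880077 it read 13.2% and 19.1% in the controls on 250 and 173 reads and was listed in neither treated library.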
